A study of Mus musculus with 17 samples.

Results

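The 5 Msi2 HITS-CLIP libraries of this series differed in how much RNase was used to trim the RNA bound to the protein, and they are described here against each other. They are 5 of the 17 samples of the series, chosen by their labels; the other 12 are RNA-seq and ribosome profiling libraries of keratinocytes that carry a scrambled or an Msi2 shRNA. All 5 CLIP libraries came from a spontaneously immortalized keratinocyte culture of C57BL/6 mice, which grew out of neonatal skin on NIH-3T3 J2 feeder cells and was later moved to plain dishes. The cultures received 2 exposures to UVC at 200 mJ/cm2, and Msi2-bound RNA was recovered with a rabbit monoclonal antibody to Msi2, run on a gel and transferred to nitrocellulose. No shRNA, drug or genotype separates the libraries. Replicate 1 was made with undiluted RNase, replicates 2 and 3 with RNase diluted 1:20, replicate 4 at 1:50 and replicate 5 at 1:75. The labels give replicate 2 as the low and replicate 3 as the high molecular weight material, and they are called the low-weight and the high-weight library below. The main comparison set the 2 libraries at 1:20 (more RNase) against those at 1:50 and 1:75 (less RNase), with the undiluted library described only. No source used here says whether the libraries came from separate cultures or lysates, and any p-value below reflects only how far these particular libraries scatter, in part perhaps for technical reasons.

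Msi2 (Musashi-2) is an RNA-binding protein of the cytoplasm that recognises short UAG-containing stretches, mostly in 3' UTRs, and is best known for regulating translation in stem and progenitor cells. In HITS-CLIP, ultraviolet light links the protein to the RNA it touches, RNase cuts away RNA that is not shielded, and the fragments that remain are sequenced. Stronger digestion leaves shorter fragments, and the part of the membrane that is cut out selects complexes by the size of RNA they carry. CLIP libraries also contain abundant stable RNAs such as ribosomal, transfer, small nuclear and small nucleolar RNA. A region's share of reads mixes the abundance of its RNA with how often that RNA was recovered, and the 2 cannot be told apart here.

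The deposited list held 4051 regions of the mm10 mouse genome with a read count for each of the 5 libraries, and 2671 of them also stood in a list of 3' UTR regions that covers 1199 gene names. Reads in regions numbered 6608 in the undiluted library, 44753 in the low-weight, 50864 in the high-weight, 61629 in the 1:50 and 53712 in the 1:75 library. Every listed region had a read in at least 4 libraries: 1573 had one in all 5, and in 2332 of the other 2478 the undiluted library was the one without. A count of 0 still allows 3 reads, which is 454 RPM (reads-per-million, of the library's reads in regions) in the undiluted library and 48.7 to 67.0 RPM in the others; this limit, like the intervals below, covers counting error only. Of 15 keratinocyte marker genes, 13 had regions in the 3' UTR list (47 regions), and none of the 12 fibroblast, 8 melanocyte or 8 immune marker genes had one. In the scrambled RNA-seq controls the summed marker levels were 19654 to 22091 CPM (counts-per-million) for keratinocytes, against 11.8 to 13.0 for fibroblasts, 1.77 to 2.13 for melanocytes and 14.8 to 19.2 for immune cells, with 6, 4 and 5 of those genes at 0 in every control.

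Among the 4 diluted libraries, the low-weight one stood apart from the other three. Its index of dispersion (chi-square per degree of freedom over all regions, 1 under counting noise alone) was 2.85 against the high-weight, 3.35 against the 1:50 and 2.73 against the 1:75 library. The 3 pairs without it gave 1.92 for the high-weight and 1:50 libraries, 1.41 for the high-weight and 1:75 libraries and 1.61 for 1:50 and 1:75. The high-weight library was thus closer to both less digested libraries than to its partner at the same dilution. Spearman correlations across the 4051 regions, which share libraries and depth and are a description only, were 0.386 to 0.430 for pairs with the low-weight library and 0.590 to 0.660 for pairs without it. The undiluted library had its highest correlation with the low-weight library, 0.372, against 0.235 to 0.262 with the rest. No pair differed by as little as counting noise, so no pair looked like 1 library under 2 names. The plot of dispersion by pair shows the same split between pairs with and without the low-weight library for 3' UTR regions, and a wider spread outside them.

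**Figure D1:**
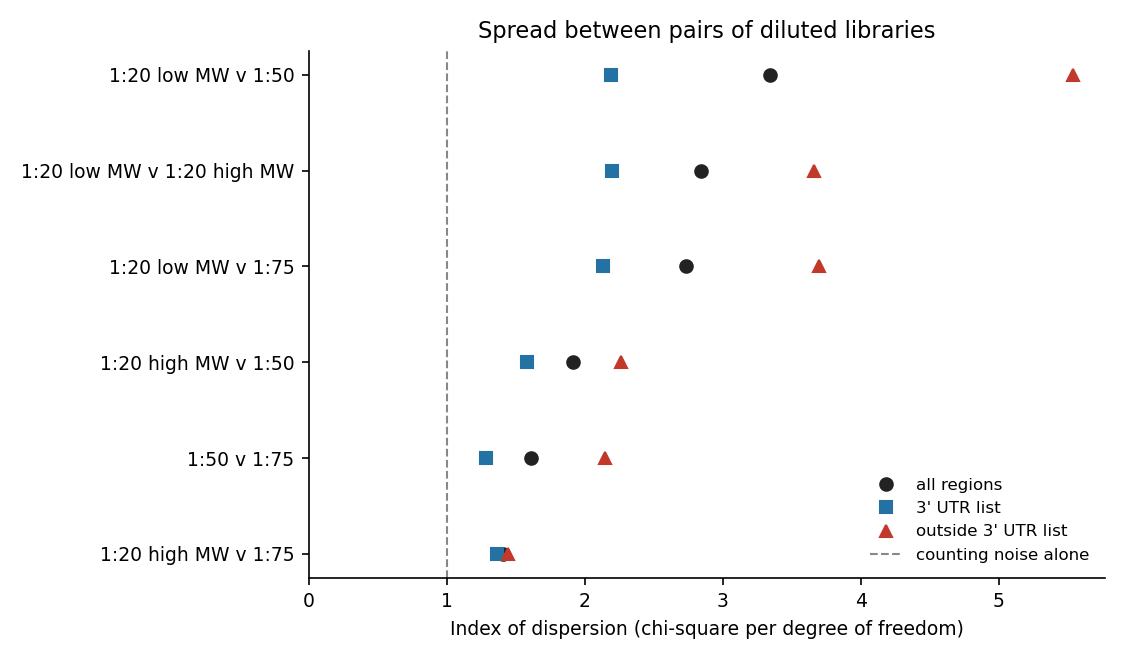
Index of dispersion (x axis, chi-square per degree of freedom) for each pair of the 4 diluted libraries (y axis), over all regions, 3' UTR list regions and the rest; MW is molecular weight and the dashed line is counting noise alone. All 3 pairs with the low-weight library lie above 2.7 over all regions and the 3 pairs without it lie between 1.41 and 1.92.

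Small RNAs gave the clearest contrast between the undiluted and the diluted libraries. Regions that overlap a miRNA hairpin, 113 regions over 105 hairpins, held 12% of the undiluted library's reads (95% Wilson interval 11.2 to 12.8), against 1.93% in the low-weight, 1.2% in the high-weight, 1.29% in the 1:50 and 1.40% in the 1:75 library. In 106 of the 113 regions the undiluted library had the highest share. The read numbers themselves were nearly level, 793, 865, 611, 797 and 752 in the same order, while the totals of the libraries differed widely. Counts in this class lay closer together than independent counting gives, with an index of dispersion of 0.701 between the low-weight and high-weight libraries and 0.362 between 1:50 and 1:75. Whether identical reads were collapsed before counting is not given in the sources used here, and its part in these level counts was not tested. The 68 hairpin regions narrower than 30 bases held 6.46% of the undiluted reads and 0.444 to 0.818% of the others. The class also takes in a region of 1241 bases in the Scd2 3' UTR that overlaps Mir5114 and held 10, 112, 125, 99 and 99 reads; without it the share was 11.8% in the undiluted library and 0.955 to 1.68% in the others.

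Among the hairpins were miRNAs known from epithelium, which were picked as examples. The hairpin regions were not confined to them. For instance, miR-142a-3p had 12, 11, 9, 11 and 11 reads in replicates 1 to 5, and miR-451a had 12, 9, 6, 8 and 6. No cell type is read from this class. The mature sequences that follow are from RefSeq (GRCm38.p6), with the seed, bases 2 to 8, in capitals; they are shown to group regions that share a seed. 107 of the 113 regions overlapped a mature sequence in sense, with 81 different seeds, 15 of them shared by more than 1 region. The first 5 belong to the miR-200 family, which keeps epithelial cells epithelial by repressing Zeb1 and Zeb2, and they fall into 2 seed groups.
mmu-miR-200b-3p: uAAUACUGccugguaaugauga
mmu-miR-200c-3p: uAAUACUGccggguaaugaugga
mmu-miR-429-3p: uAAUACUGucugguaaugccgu
mmu-miR-200a-3p: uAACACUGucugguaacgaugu
mmu-miR-141-3p: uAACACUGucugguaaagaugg
The next 3 share the seed of the miR-17 family, which promotes proliferation.
mmu-miR-17-5p: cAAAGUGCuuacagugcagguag
mmu-miR-20b-5p: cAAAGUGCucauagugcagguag
mmu-miR-93-5p: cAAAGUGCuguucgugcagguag
The last 3 are miR-203, which restrains proliferation as keratinocytes differentiate, and both arms of miR-31.
mmu-miR-203-3p: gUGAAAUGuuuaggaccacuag
mmu-miR-31-5p: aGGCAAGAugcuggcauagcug
mmu-miR-31-3p: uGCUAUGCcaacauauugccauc

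The 3 regions with the seed of miR-200b, miR-200c and miR-429 together held 36 reads in the undiluted, 31 in the low-weight, 21 in the high-weight, 23 in the 1:50 and 24 in the 1:75 library. The 2 regions with the seed of miR-141 and miR-200a held 21, 16, 13, 15 and 11 reads in that order. The 5 regions with the miR-17 seed held 47, 52, 26, 35 and 38, and the 6 regions with the let-7 seed, a family that restrains growth genes, held 29, 22, 15, 22 and 22. All 4 seed groups had their highest share in the undiluted library, which had the fewest reads overall. The Mir203 region (chr12:112130926-112130952) had 9, 8, 8, 9 and 7 reads. The Mir31 region (chr4:88910510-88910638, minus strand, 129 bases), which spans both printed arms, had 57 reads in the undiluted library, 0.863% of it, and 33, 18, 29 and 22 in the others, at most 0.0737%. On the opposite strand, a region of 21 bases (chr4:88910615-88910635) lay antisense to miR-31-5p, with 33 reads in the undiluted library and 15, 4, 5 and 5 in the others. Mir20b likewise had a sense region with 12, 22, 9, 16 and 16 reads and an antisense one (chrX:52742159-52742183) with 11, 16, 6, 11 and 11. These were the only antisense regions among the 113. They were also few reads: none of the 89 regions of any kind narrower than 30 bases had more than 33 reads in a library.

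The undiluted library also stood apart in other classes, with 25.3% of its reads in 3' UTR list regions outside the small RNA classes against 36.7 to 46.2% in the diluted libraries, and 14.7% against 8.37 to 11.3% in regions with no RefSeq gene. In the 4 classes described next the low-weight library was above the other diluted libraries. Transfer RNA regions held 2.18% of the undiluted and 1.86% of the low-weight reads but 0.910% of the high-weight, 1.09% of the 1:50 and 1.04% of the 1:75 reads. Small nuclear and Y RNA regions took 1.98% of the undiluted reads, 2.41% of the low-weight reads and 1.58 to 1.62% of the reads of the other libraries. The mitochondrial chromosome held 9.88% of the low-weight reads against 5.10% of the undiluted and 7.09 to 8.23% of the other reads, and the ribosomal RNA repeat on chromosome 17 held 15% against 12% and 11.2 to 12.4%. In the ribosomal repeat both less digested libraries also lay below both 1:20 libraries (difference -2.02 percentage points, exact permutation test, 2-sided, p = 0.333). Classes come from overlap with RefSeq gene spans. Transfer, small nuclear and ribosomal RNA genes have near-identical copies, so the split between copies is uncertain.

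**Figure D2:**
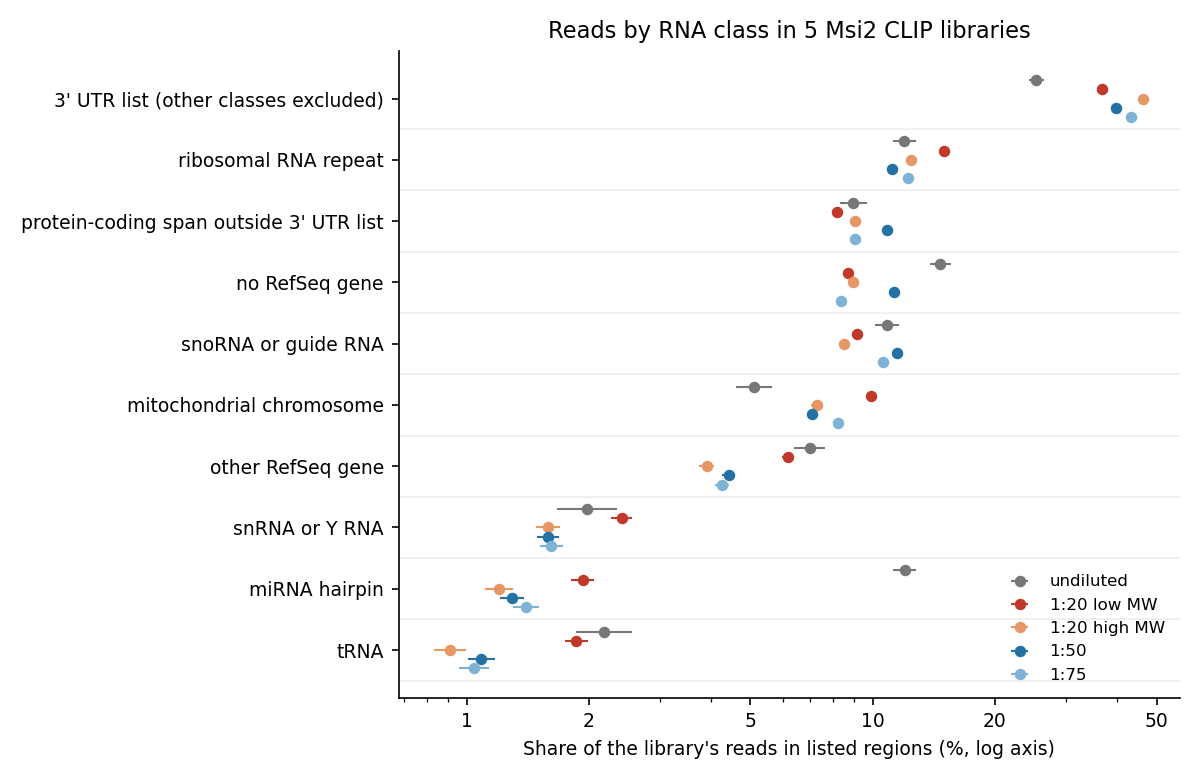
Share of each library's reads (x axis, percent, log scale) in 10 RNA classes (y axis), with 95% Wilson intervals for counting error; each point is 1 library and MW is molecular weight. The undiluted library is at 12% for miRNA hairpins and every diluted library is under 2%.

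Small nucleolar and guide RNA regions (219 regions) were the one class of the 10 in which both less digested libraries lay above both 1:20 libraries. These RNAs guide chemical modification of ribosomal RNA and are cut from introns of host genes. Their share was 9.15% in the low-weight, 8.49% in the high-weight, 11.4% in the 1:50 and 10.6% in the 1:75 library, and 10.9% in the undiluted one. The group means differed by 2.21 percentage points (exact permutation test, 2-sided, p = 0.333, the smallest p that 2 against 2 allows; adjusted over 10 classes, p = 1). Of the 148 such regions tested singly, 75 had both less digested libraries above both 1:20 libraries and 5 the reverse. Together they were 54.1% of the class, against 39.3% of all tested regions (23.4% higher and 16% lower). These counts rest on the same plain shares as the class total, and regions are not replicates. With scaling factors, the median log2 fold change of the 148 was 0.17. No single one was called. The region of Snord35a in the Rpl13a locus (chr7:45126345-45126440) had 80, 80, 149 and 121 reads in replicates 2 to 5. In RPM these were 1788, 1573, 2418 and 2253, and the groups did not overlap. The log2 fold change was within its error, at 0.30 ± 0.31 (SE). Hspa8, a heat shock chaperone gene, hosts Snord14c, Snord14d and Snord14e regions with 200, 177 and 156 reads in the 1:50 library. Of these, the Snord14d region (chr9:40803989-40804091) had groups that did not overlap, at 2458 and 2241 RPM against 2872 and 2849, and the other 2 overlapped. The Snord14d log2 fold change was 0.11 ± 0.31, also within its error.

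Over single regions, no difference between 1:20 and the less digested libraries passed the test. The spread within groups included the gel fraction at 1:20 and the dilution in the other group. A lack of calls therefore does not show that RNase had no effect. Of 984 regions with enough reads, 0 were called (0% at an adjusted p under 0.05, edgeR quasi-likelihood test with Benjamini-Hochberg adjustment), and 56 (5.69%) had an unadjusted p under 0.05, 28 higher and 28 lower (2.85% each). limma-voom called 0. The smallest adjusted p was 0.162. Without regard to size, 387 regions (39.3%) had no overlap between the groups, 230 higher (23.4%) and 157 lower (16%) at less RNase. With 2 libraries against 2, a random order alone leaves no overlap, in either direction, with a probability of 0.333. A lack of overlap in a single region is therefore a description only. The median log2 fold change was -0.0028 and the median standard error 0.57, so changes below about 2-fold were within the error of most regions. On simulated counts with the same depth, the test found 1.89% of changes of 1 on the log2 scale, 62.7% of changes of 2 and 89.7% of changes of 3. The simulation gave all regions 1 common dispersion and did not set the low-weight library apart. Its rates may therefore be too high for the real libraries.

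The regions with the smallest p, named after their values were seen, had few reads at 1:20. A region of 94 bases within the span of Shb, an adaptor protein of receptor tyrosine kinases (chr4:45524992-45525085), had 0 reads in the undiluted, 1 in the low-weight, 5 in the high-weight, 62 in the 1:50 and 61 in the 1:75 library. Both less digested libraries were thus well above the rest. Shb, like Tert and Tmtc3 below, met the read filter only through these 2 libraries. The other settings named below reuse the same counts and are not independent support. The log2 fold change was 3.93 ± 0.60 (SE), with an adjusted p of 0.162, and DESeq2 on the same regions called this one alone (0.102% of those tested; log2 fold change 3.97, adjusted p = 0.0149). It was also called with no filter on low counts, where 2 of 4051 regions passed (0.0494%), and with the undiluted library added to the 1:20 group, where it was the only one of 1066 (0.0938%). A region antisense to Tert, the catalytic subunit of telomerase (chr13:73638118-73638206), had 0, 1, 2, 45 and 29 reads in the same order, a log2 fold change of 4.11 ± 0.69 and an adjusted p of 0.162. In the Tmtc3 3' UTR (chr10:100443965-100444091) the reads were 0, 2, 1, 44 and 22 (3.91 ± 0.76, adjusted p = 0.287). In the other direction, the 3' UTR of Smarcd2, a subunit of the SWI/SNF chromatin remodeller, had 0, 16, 10, 3 and 1 reads (-3.10 ± 0.92, adjusted p = 0.768). The plot of fold change against level places these 4 at the edge of the cloud, at low to middling levels. Exons were not resolved for regions outside the 3' UTR list, since the annotation used gives gene spans.

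**Figure D3:**
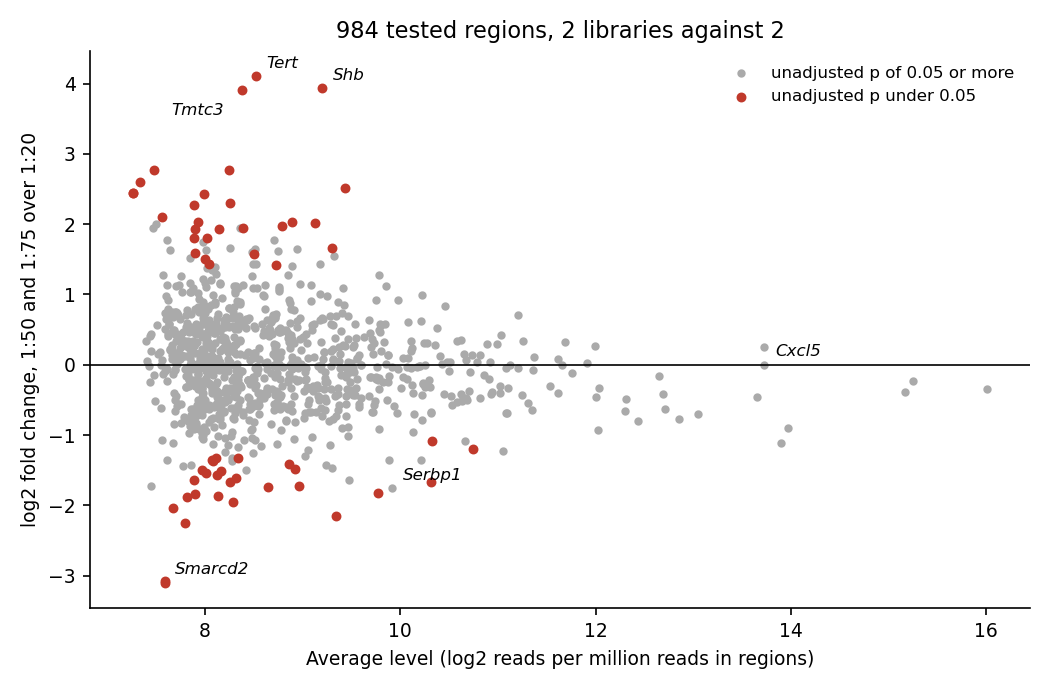
Log2 fold change of the 1:50 and 1:75 libraries over the 1:20 libraries (y axis) against average level (x axis, log2 RPM) for the 984 tested regions; red points have an unadjusted p under 0.05. No region passed the adjusted threshold, and Shb, Tert and Tmtc3 lie highest with fold changes of 3.91 to 4.11 on the log2 scale.

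The number of calls depended on which 1:20 library was kept. With the high-weight library alone against 1:50 and 1:75, 12 of 1496 regions were called (0.802%), 6 higher and 6 lower. With the low-weight library alone, 226 of 1499 were called (15.1%), 95 higher and 131 lower at less RNase. In these fits the lone library is assumed to vary like the other group. Both fits use the same 1:50 and 1:75 libraries, so a call shared by them is not independent support. In both fits 5 regions were called, 41.7% of the 12 and 2.21% of the 226, and 4 of them had the same direction: Shb, Tert, Tmtc3 and a region with no RefSeq gene (chr5:7549657-7549724), with 0, 4, 14, 105 and 33 reads. The fifth was the 3' UTR of Serbp1, an RNA-binding protein of the ribosome, which reversed. It had 0, 4, 144, 28 and 24 reads, so the less digested libraries were 2.68 lower on the log2 scale against the high-weight library (a change of -2.68, adjusted p = 1.42e-14) and 1.98 higher against the low-weight library (adjusted p = 0.0482). By class, the calls against the low-weight library made up 50.0% of small nuclear and Y RNA regions (1 higher, 10 lower), 63.6% of ribosomal repeat regions (1 higher, 6 lower), 33.1% of regions with no RefSeq gene (29 higher, 26 lower) and 10.1% of 3' UTR list regions (36 higher, 53 lower).

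The 2 gel fractions at 1:20 were then compared with each other; with 1 library each there is no replicate check. Of 262 regions with at least 50 reads in the pair, 62 (23.7%) differed by 2-fold or more, 28 higher in the high-weight and 34 higher in the low-weight library. The 1:50 and 1:75 libraries, which differ in dilution, gave 44 of 378 (11.6%), and the high-weight against the 1:75 library 18 of 308 (5.84%). Regions of the 3' UTR list outside the small RNA classes leaned to the high-weight library, with 18 of 101 at least 2-fold higher there and 1 lower. Small nuclear and Y RNA regions leaned the other way, with 8 of 15 at least 2-fold higher in the low-weight library and 1 lower. The median width was 225 bases for the 28 regions and 133 bases for the 34, but these sets also differ in class. Within the 3' UTR class the 18 had a median of 248 bases, against 282 for all 101. Among regions with no RefSeq gene it was 243 bases for the 3 higher in the high-weight library and 132.5 for the 6 lower.

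Among regions with at least 50 reads in the pair, the largest high-weight excess was in Serbp1, chr6:67283899-67284117, at 31.7 times the low-weight share (exact 95% interval 12.1 to 118, counting error only). Canx, the endoplasmic reticulum chaperone calnexin, had 1, 6, 83, 38 and 54 reads in its 3' UTR region (chr11:50294790-50295032), a ratio of 12.2 (5.36 to 34.1). Cd44, the hyaluronan receptor of basal keratinocytes, had 0, 9, 70, 22 and 53 reads (chr2:102812475-102812580; ratio 6.84, 3.41 to 15.6). In both genes the 1:50 and 1:75 libraries lay between the 2 fractions. A region antisense to the cation channel gene Trpc4 (chr3:54186123-54186199) had 0, 2, 55, 112 and 24 reads (24.2, 6.39 to 205), and a region with no RefSeq gene (chr14:106331459-106331559) had 0, 4, 74, 157 and 37 (16.3, 6.10 to 61.3). For these 2 the 1:50 library was the highest.

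Under the same limit of 50 reads, the 5 largest low-weight excesses included tRNA and small nuclear RNA regions. The mitochondrial region over the threonine and proline tRNA genes (chrM:15319-15532, minus strand) had 14, 191, 50, 101 and 54 reads, 4.34 times more of the low-weight than of the high-weight library (3.17 to 6.05). The aspartate tRNA gene n-TDgtc16 had 3, 52, 14, 40 and 26 reads (4.22 times, 2.31 to 8.25), the small nuclear RNA Gm23143 had 2, 55, 15, 20 and 18 (4.17 times, 2.32 to 7.94), and a region over Gm26448 within Rpsa, a ribosomal protein gene, had 6, 69, 17, 16 and 24 (4.61 times, 2.68 to 8.37). Gm10222 had 2, 41, 10, 23 and 21 (4.66 times, 2.30 to 10.4). In all 5 the low-weight library was the highest of the 4 diluted libraries. The small nuclear RNA regions Gm25099, with 11, 121, 37, 34 and 38 reads, and Rnu5g, a U5 gene of the spliceosome, with 14, 81, 30, 36 and 27 reads, had the same shape. Not every stable RNA did: Rn7sk, the 7SK RNA that holds back transcription elongation, had 7, 53, 151, 153 and 172 reads and was lower in the low-weight library. The Y RNA Rny1 had 13, 90, 115, 115 and 108 reads. Its low-weight level, 2011 RPM, lay within the 1866 to 2261 RPM of the other diluted libraries.

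**Figure D4:**
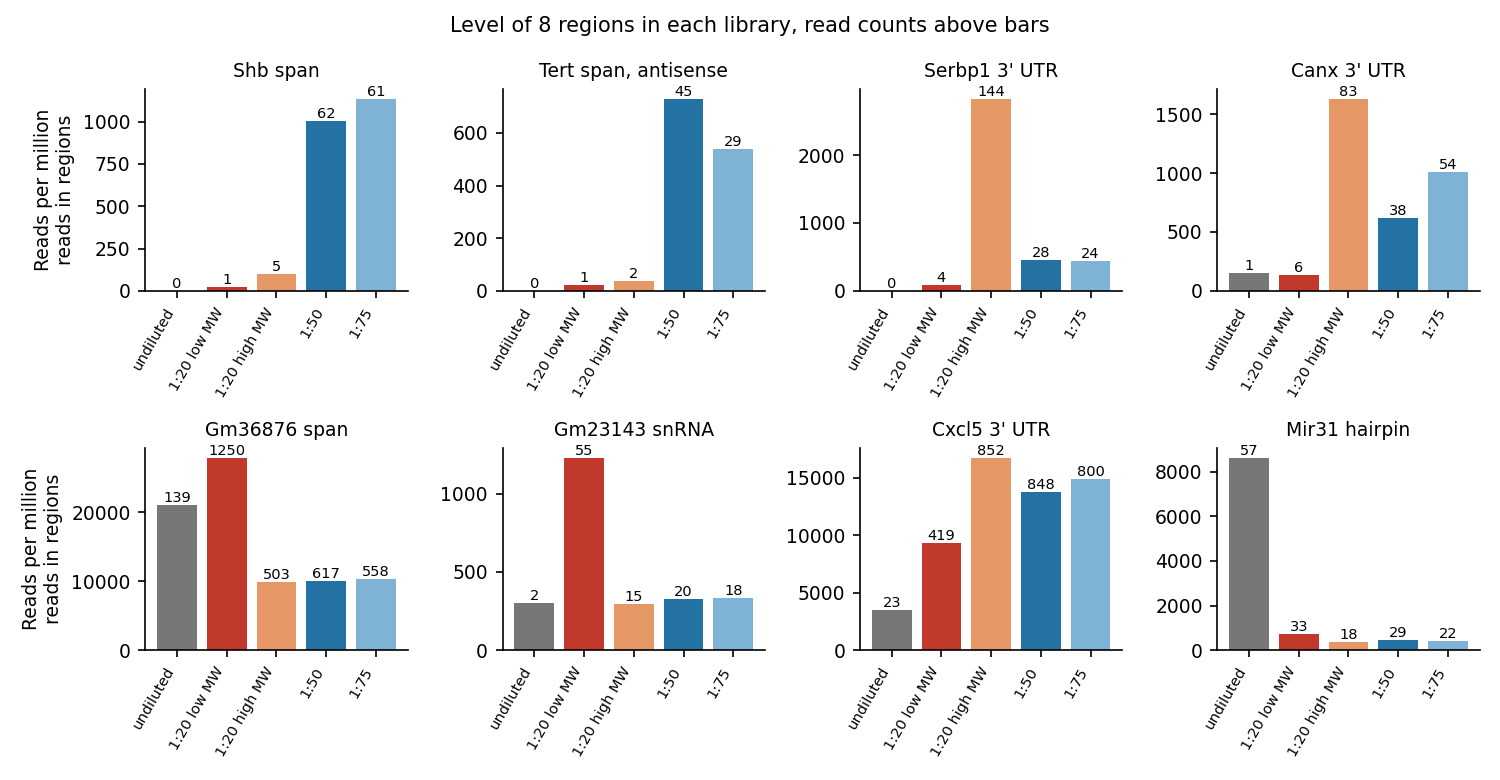
Levels in RPM (y axis, starting at 0) for 8 regions in each of the 5 libraries (x axis), with read counts above the bars; MW is molecular weight. Shb and Tert are high in the 1:50 and 1:75 libraries, Serbp1 and Canx in the high-weight library, Gm36876 and Gm23143 in the low-weight library and Mir31 in the undiluted library.

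Among the 10 regions with the highest mean share, 5 were in the ribosomal RNA repeat and 1 covered the mitochondrial ribosomal RNAs. That widest region, 5231 bases on the mitochondrial chromosome, held 3.83% of the undiluted reads and 7.72, 6.02, 5.63 and 6.64% of the others. The 484-base region in the 18S repeat Rn18s-rs5 held 2.75% of the undiluted reads and between 3.57 and 4.06% of the others. Gm36876 on chromosome 11 (chr11:109011784-109012132) had 139, 1250, 503, 617 and 558 reads, 2.82 times more of the low-weight than of the high-weight library (2.54 to 3.14). A region on chromosome 6 with no RefSeq gene (chr6:3201397-3201686) went the other way, with 46, 249, 959, 1013 and 783 reads. Cxcl5, a chemokine that draws neutrophils, had the 3' UTR region with the most reads (chr5:90760883-90761533, 651 bases), with 23, 419, 852, 848 and 800. Its low-weight level, 9362 RPM, was below the 13760 to 16751 of the other diluted libraries, and its log2 fold change between the groups was 0.00 ± 0.36. Cdk8, a kinase of the Mediator complex, had 36, 631, 705, 687 and 630 reads in a region within its span, with the less digested libraries lower in share without overlap (-0.46 ± 0.34, adjusted p = 0.835).

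The 1:50 and 1:75 libraries were compared next. Among 87 regions in protein-coding spans or with no RefSeq gene and at least 50 reads in the pair, 29 were 2-fold or more lower in the 1:75 than in the 1:50 library, and they were picked by that difference, so it is no finding. The choice did not use width or strand directly. The 29 were 60 to 115 bases wide, with a median of 77 against 138.5 for the other 58. Of the 13 in coding spans, 11 ran antisense to the gene, 1 ran in sense and 1 could not be assigned; of the 26 coding-span regions among the other 58, 9 ran antisense, 13 in sense and 4 could not be assigned to 1 strand. The undiluted library had no read in 28 of the 29 and in 4 of the other 58. Each such 0 still allows 454 RPM in that library. The 29 passed the limit of 50 reads largely through the 1:50 library. The classes were also those that held 13 and 16 of the 35 regions at least 2-fold lower in the 1:75 library. No conclusion is therefore drawn from the zeros, the widths or the strands. These counts were not tested. Examples are regions antisense to Trim30a (chr7:104427988-104428102; 0, 1, 40, 100 and 11 reads), Gsk3b, a kinase of the Wnt pathway (chr16:38222706-38222775; 0, 1, 20, 73 and 13), and Afm (chr5:90532918-90533011; 0, 3, 15, 67 and 7). In the opposite direction a region in the 3' UTR of Wnk1, a kinase that controls ion transport (chr6:119925851-119925951), had 0, 1, 14, 2 and 53 reads. A region in the 3' UTR of Fst, which encodes the activin antagonist follistatin (chr13:114452895-114453096), had 1, 10, 20, 19 and 47.

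The share of reads in 3' UTR list regions did not separate the dilutions. It was 29.6% in the undiluted library (95% Wilson interval 28.5 to 30.7), 39.7% in the low-weight (39.2 to 40.1), 48.3% in the high-weight (47.9 to 48.7), 42.2% in the 1:50 (41.8 to 42.6) and 45.6% in the 1:75 library (45.2 to 46.1). The 1:20 libraries held both the lowest and the highest value of the 4 and averaged 44.0%, and the less digested ones averaged 43.9% (difference -0.052 percentage points, exact permutation test, 2-sided, p = 1). Against the low-weight library alone, 1:50 and 1:75 were 4.25 points higher, and against the high-weight library alone they were 4.36 points lower (a difference of -4.36). All values lay above the undiluted library.

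Widths were compared in the same way. The median region was 138 bases wide, 162 in the 3' UTR list and 97.5 outside it. Averaged over reads, the width was 381 bases in the undiluted, 633 in the low-weight, 559 in the high-weight, 523 in the 1:50 and 588 in the 1:75 library, a difference of -40.5 bases between the groups (exact permutation test, 2-sided, p = 0.667). The median over reads was 136 bases in the undiluted library and 184, 196, 174 and 186 in the others. Outside the 3' UTR list the groups did not overlap, with medians of 181 and 169 at 1:20 against 148 and 165 at less RNase (difference -18.5 bases, exact permutation test, 2-sided, p = 0.333, the smallest possible). Without the 10 regions of most reads, the mean was 169 in the undiluted library and 232, 244, 225 and 242 in the others. Regions narrower than 30 bases held 7.94% of the undiluted reads against 0.552 to 0.990% of the diluted ones. Only in the class of 50 to 99 bases did the groups not overlap, with 13.5 and 13.8% at 1:20 against 20.0 and 15.1% at less RNase, among the 7 width classes (exact permutation test, p = 0.333, the smallest possible). The narrowest regions, of 21 or 22 bases, include the one antisense to miR-31-5p and one in Mir140, with 3, 3, 2, 1 and 1 reads. The widest in nuclear genes lay in the 3' UTR of Scd2, a stearoyl-CoA desaturase, at 2105 bases with 20, 100, 169, 207 and 231 reads, and within Ahnak, a giant scaffold protein, at 1941 bases with 8, 70, 102, 124 and 110.

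**Figure D5:**
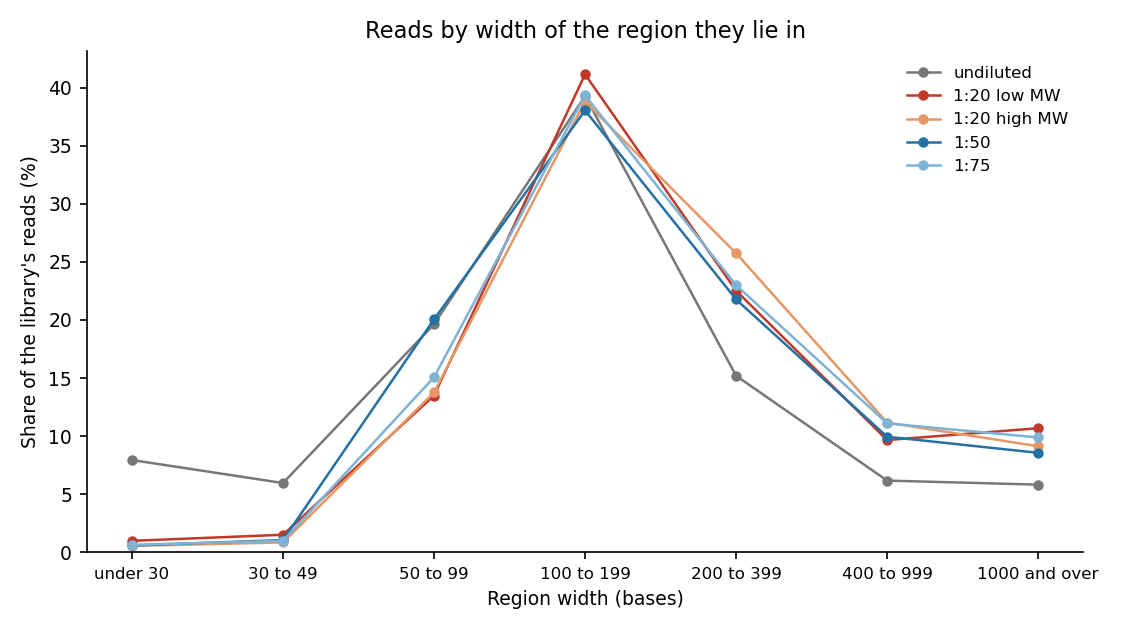
Share of each library's reads (y axis, percent) by the width in bases of the region they lie in (x axis); each line is 1 library and MW is molecular weight. The undiluted library holds 7.94% in regions under 30 bases, and the 1:50 library stands out from the other diluted ones at 50 to 99 bases with 20.0%.

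No chromosome's share passed a test between the groups: the smallest adjusted p over 22 chromosomes was 0.978 (exact permutation tests, 2-sided, whose smallest raw p is 0.333). Chromosome 17 held 20.8% of the undiluted reads and 18.2, 15.7, 14.5 and 15.5% of the others, so the 2 less digested libraries were the lowest. Its 11 ribosomal repeat regions made up most of that, and the rest of chromosome 17 held 8.84% in the undiluted library and between 3.24 and 3.33% in every diluted library. The group difference on chromosome 17 was -1.96 percentage points, and -0.23 without the 10 regions of most reads. The mitochondrial chromosome differed by -0.92 points, and by 0.38 the other way without the low-weight library.

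Gene groups tied to keratinocyte adhesion, migration and growth held no region that passed the test in either direction. Of 34 actin and migration genes, 20 had 54 regions and 19 of these were tested, with a median log2 fold change of -0.22 against -0.0028 over all tested regions. In the 3' UTR of Actn4, an actin crosslinker of moving cells (chr7:28893546-28893714), which also overlaps Capn12 on the other strand, the reads were 0, 19, 49, 10 and 16, with both less digested libraries below both at 1:20 (-1.72 ± 0.56, adjusted p = 0.768). The small GTPase gene Rac1, which drives lamellipodia, had 0, 31, 19, 13 and 8 (-1.74 ± 0.61, adjusted p = 0.768). A touching Rac1 region with more reads, 14, 28, 18 and 23 in replicates 2 to 5, was at -0.42. Its adjusted p was 0.846 when only the region of most reads was kept where regions touch. Without the low-weight library only Actn4 of the 2 was called (-2.11, adjusted p = 0.0041, with Rac1 at -1.07), and without the high-weight library only Rac1 (-2.25, adjusted p = 0.0014, with Actn4 at -1.22).

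Integrins and focal adhesion genes had 73 regions in 12 of 24 genes, 29 tested, with a median of 0.10. Itgb1, the common beta subunit of matrix receptors, had 3, 35, 26, 18 and 23 reads (-1.03 ± 0.50, adjusted p = 0.768), and Cd9, a tetraspanin that binds integrins, had 7, 148, 129, 123 and 121 (-0.64 ± 0.34, adjusted p = 0.795). Both were lower at less RNase without overlap, and both were called without the high-weight library (-1.45, adjusted p = 0.0203, and -0.97, adjusted p = 0.00038). Without the low-weight library they shrank to -0.55 (adjusted p = 0.889) and -0.29 (adjusted p = 0.851). Laminin, hemidesmosome and plakin genes had 29 regions in 12 of 13 genes, of which only 6 were tested (median -0.18). Lamb3, which encodes a laminin chain of the basement membrane, had 0, 10, 11, 10 and 6 reads (-0.82 ± 0.66, adjusted p = 0.835).

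Junction genes had 68 regions in 15 of 23 genes and 38 were tested, the most of any group (median -0.061). Desmoplakin, which ties desmosomes to keratin, has a pair of adjoining regions in the Dsp 3' UTR (chr13:38197767-38198170 and chr13:38198173-38198454). The first had 13, 190, 238, 194 and 223 reads and the second 10, 201, 215, 236 and 212, with log2 fold changes of -0.45 ± 0.32 and -0.34 ± 0.32. In both, the less digested libraries were lower in share without overlap. The tight junction gene Cldn1 had 0, 1, 4, 12 and 14 reads (1.95 ± 0.90, adjusted p = 0.768) and the connexin gene Gja1 had 1, 23, 14, 15 and 12 (-0.93 ± 0.59, adjusted p = 0.827). Gja1 was at -0.27 without the low-weight and at -1.46 without the high-weight library. Of 18 keratin and cornified envelope genes, 9 had 14 regions and 8 were tested (median -0.29): Krt5, the basal keratin, had 1, 7, 23, 37 and 30 reads (0.79 ± 0.55, adjusted p = 0.829). Its value was 0.32 without the low-weight library and 1.55 without the high-weight library. A touching Krt5 region with more reads was at 0.36.

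RNA-binding proteins and 3' UTR regulators had 69 regions in 28 of 51 genes, but only 8 were tested (median 0.013). Ddx3x, an RNA helicase of translation, had 0, 4, 13, 25 and 12 reads (0.72 ± 0.62), and Rbms1 had 1, 16, 21, 19 and 14 (-0.59 ± 0.51), both with an adjusted p of 0.835. Ddx3x was at 0.27 without the low-weight or the 1:50 library and at 1.48 without the high-weight library. Translation factors had 13 regions in 6 of 16 genes, and the single one tested, in the initiation factor gene Eif4g2, had 3, 32, 30, 47 and 43 reads. Genes named as Musashi targets in other tissues had 14 regions in 7 of 17 genes and 3 were tested (median -0.51). Ctnnb1, the beta-catenin gene, had 2, 27, 34, 27 and 30 reads (-0.51 ± 0.42, adjusted p = 0.835), and the Notch ligand gene Jag1 had 3, 10, 8, 6 and 11. Growth factor and TGF-beta genes had 42 regions in 14 of 32 genes, 7 tested (median -0.32), of which a region of the BMP receptor gene Bmpr2 had 1, 11, 19, 9 and 5 reads (-1.49 ± 0.58, adjusted p = 0.768). Cell cycle genes had 41 regions in 10 of 23 genes, 6 tested (median 0.0045): Ccnd2, a D-type cyclin, had 2, 8, 18, 27 and 26 reads (0.64 ± 0.53, adjusted p = 0.835), with 0.34 without the low-weight and 1.03 without the high-weight library.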

How the data were processed

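Per the labels, Msi2 was immunoprecipitated from crosslinked mouse keratinocytes in 5 CLIP libraries. The authors' deposited region tables give whole-number read counts per library, a peak height signal pooled over the libraries, and a score counting the libraries with a read. Cutadapt, Novoalign and mm10 are named in the submitters' processing notes. The peak caller, its filters and duplicate handling are not given in the sources used here. The deposited RNA-seq counts served only for marker levels. Positions are 1-based, mm10. Genes and RNA classes come from overlap with RefSeq GRCm38.p6 spans; no exon table was used.

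Shares are reads over all reads in listed regions. Regions were filtered with filterByExpr (minimum count 10, total 15) and tested with edgeR 4.0.16 (quasi-likelihood, TMM factors 0.865 to 1.06, biological coefficient of variation 0.365, Benjamini-Hochberg threshold 0.05), with DESeq2 1.42.0 and limma 3.58.1 as alternatives, in R 4.3.3. The test was checked on simulated counts over 999 regions. Library values were compared by exact permutation (scipy 1.17.1); pair ratios counted as 2-fold used a pseudocount of 0.5 reads. Named regions were the 10 of highest mean share, 5 each way between the gel fractions, 5 highest in the undiluted library, the widest and narrowest 3, the 2 of smallest p per gene list, while the regions of smallest p, the small RNA, seed group and Dsp examples and those set between 1:50 and 1:75 were chosen after their values were seen. One region that the rule names is not reported here. No called region met the rule for large changes. Members and gene lists were chosen with earlier results of these data known.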

Additional observations from a re-analysis of the deposited data

Results flagged for a closer look

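The undiluted library was outside the comparison of dilutions and had signals above the limit that a count of 0 allows. Its share in miRNA hairpin regions was 12%, against at most 1.93% in a diluted library. The region antisense to Mir31 held 0.499% of it, 33 reads, and the region antisense to Mir20b held 0.166%, 11 reads. The undiluted library is a single one, with 6608 reads, so these shares have no replicate.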

How the results depend on the processing

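No paired analysis was possible because the groups compared share no replicate numbers. The 0 higher and 0 lower calls became 1 higher with DESeq2, 2 without a filter on low counts (Shb and Tert) and 1 with the undiluted library added at 1:20 (Shb). With 1 library left out in turn they ranged from 0 to 95 higher and from 0 to 131 lower; both highest counts came without replicate 3, and 6 higher and 6 lower came without replicate 2. Plain shares, DESeq2 size factors, limma-voom, at least 20 reads and the dilution as a covariate gave 0 in both directions. So did keeping only the region of most reads where regions touch (3936 left). Leaving out mitochondrial and ribosomal repeat regions, added after seeing the data, also gave 0. A log2 change of at least 1 was asked of the main result, so that setting could only give 0. The difference in 3' UTR share ranged from -4.36 to 4.25 points with a library left out, with 1.66 without replicate 4. The difference in mean width ranged from -77.4 to -3.65 bases. The causes were not tested. The RNA class and chromosome checks without single libraries were also added later: with a library left out the mitochondrial difference ranged from -2.22 to 0.38, that of miRNA hairpins from -0.59 to 0.15 and that of tRNA from -0.80 to 0.15. Each highest value came without replicate 2 and is the only one above 0. Within the 3' UTR list, 18.9% of regions were 2-fold apart between the gel fractions. The gap between the lowest dispersion of pairs with the low-weight library and the highest of the others was 0.82, with 0.55 within the 3' UTR list and 1.40 outside it. The Serbp1 log2 fold change ranged from -2.68 without replicate 2 to 1.98 without replicate 3, against -1.75 with all 4 libraries. The chromosome 17 difference was -0.23 without the 10 regions of most reads. Between 1:50 and 1:75, 7.64% of 3' UTR list regions were 2-fold apart, and 6.95% of those with 100 reads over the 4 libraries. With 2 libraries a group, changes of 2-fold or less were rarely detectable. On simulated counts the test found 1.89% of changes of 1 on the log2 scale and 62.7% of changes of 2.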
